A study of Danio rerio with 4 samples.

Results

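Solute carriers are the proteins that move nutrients, ions, neurotransmitters and metabolites across cell and organelle membranes. The 127 genes here are the solute carrier genes of the adult zebrafish telencephalon that were detected among cells sorted for a radial glia reporter. They were taken as every gene symbol that starts with slc or slco and a number and that had at least 200 unique molecular identifiers (UMIs, counted mRNA molecules) over all cell barcodes of 4 libraries. The glutamate transporters slc1a2b and slc1a3b were set aside by the same rule. Of 24435 gene symbols, 409 had such a name and 369 of these had a UMI, so the 127 members were the better detected ones, in 38 families. The members were thus chosen by their UMI total, so their levels are given as a description. Just inside the threshold stood slc22a2 with 212 UMIs and slc16a12b and slc17a6b with 201 UMIs each, and just outside it slc10a3 and slc25a51b with 199 each and slc35c2 with 195. The name pattern also took in 3 genes that do not encode a carrier, namely the scaffold protein gene slc9a3r1a and the genes slc7a6os and slc4a1ap.

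Radial glia are the neural stem cells of the adult fish brain and also do the work that astrocytes do in mammals. Astrocytes and radial glia clear glutamate and GABA from around synapses, pass glutamine, lactate and citrate to neurons, and buffer acid and potassium. In most of these tasks a solute carrier is the step that crosses the membrane, usually driven by the sodium gradient or by solute exchange. Potassium is also moved by channels and pumps, which are not members.

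The study had 4 groups with 1 library each, all from fish aged 3 to 7 months that carried Tg[GFAP:dTomato]nns17Tg, in which the GFAP promoter drives dTomato in radial glia. The injured MTZ library and the uninjured MTZ library were made from fish with a second transgene, Tg[mpeg1:NTR-EYFP]w202, which puts nitroreductase in microglia and macrophages. MTZ is metronidazole, a drug that nitroreductase turns into a cell poison. The injured library and the uninjured library came from fish with the reporter alone and no MTZ label. Injured means 3 days after a stab lesion. Each library pooled 7 telencephalons, from which dTomato-positive cells were sorted, so every difference below is a difference between 2 libraries with no replicate check. MTZ, the second transgene and the pool of fish cannot be told apart. The treatment label gives a lesion for every library, against the titles, and the groups follow the titles.

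Radial glia were taken as cells in which fabp7a, a fatty acid binding protein of radial glia, made up at least 0.5% of UMIs. There were 1279 such cells in the injured MTZ library, 1240 in the uninjured MTZ library, 950 in the injured library and 679 in the uninjured library, of 4732 cells kept in all. Between 2696411 UMIs (uninjured) and 5900026 UMIs (injured MTZ) were counted in these cells per library. All 12 radial glial markers checked, among them gfap, s100b and glula, were detected in these cells in every library. The list holds fabp7a itself, and all 5 mural and all 7 ciliated markers were detected too, so detection alone does not show identity. The marker s100b was found in between 92.1% and 98.5% of fabp7a cells per library. For gfap the share was 78.03% (injured MTZ), 55.89% (uninjured MTZ), 75.68% (injured) and 74.96% (uninjured). Microglial marker transcripts were not evenly low in fabp7a cells. The 12 microglial markers summed to 2.88 CPM (UMIs of a gene or list scaled to 1000000 UMIs of the fabp7a cells) in the injured MTZ library, 111 CPM in the uninjured MTZ library, 12.2 CPM in the injured library and 2.60 CPM in the uninjured library. All 12 were detected in the uninjured MTZ library, against 6 in the injured MTZ library and 5 in the injured and in the uninjured library, and mpeg1.1 was at 0 in these 3. The 12 neuronal markers summed to between 168 CPM in the uninjured library and 493 CPM in the uninjured MTZ library. Pairs of libraries shared 0 to 6 cell barcodes.

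The members together made up 1.16% of the UMIs of fabp7a cells in the injured MTZ library, 1.26% in the uninjured MTZ library, 1.14% in the injured library and 1.49% in the uninjured library. Levels are CPM in the fabp7a cells of a library, with exact Poisson 95% intervals that cover counting error only, and they are not divided by transcript length because each molecule is counted once at its end. The mean CPM over the 4 libraries had a median of 24.3 and ran between 0.448 and 2261. At least 100 CPM was reached by 21 members, 98 lay between 10 and 100 CPM and 8 lay under 10 CPM. The 5 most abundant members held 50.5% of all member CPM.

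The mitochondrial carrier family SLC25 was the largest, with 27 members and 34.4% of member CPM. Its most abundant member was slc25a5, the ADP/ATP carrier of the inner mitochondrial membrane, with 2180 CPM in the injured MTZ library, 2251 CPM in the uninjured MTZ library, 2216 CPM in the injured library and 2395 CPM in the uninjured library. It ranked first among the members in all 4 libraries. The calcium-regulated ATP-magnesium carrier slc25a25a was at 675 CPM (injured MTZ), 959 CPM (uninjured MTZ), 727 CPM (injured) and 727 CPM (uninjured), highest in the uninjured MTZ library. The mitochondrial phosphate carrier slc25a3b was at 401 CPM (injured MTZ), 399 CPM (uninjured MTZ), 464 CPM (injured) and 470 CPM (uninjured). The carnitine-acylcarnitine carrier slc25a20, which brings fatty acids in for oxidation, was at 109 CPM (injured MTZ), 154 CPM (uninjured MTZ), 96.9 CPM (injured) and 156 CPM (uninjured), lower in both injured libraries than in the uninjured ones.

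The plasma membrane carriers at the top of the list were those of bicarbonate, glutamine and phosphate. The sodium bicarbonate cotransporter slc4a4a, which sets the pH of astrocytes in mammals, ranked second in every library, with 1583 CPM in the injured MTZ library, 1596 CPM in the uninjured MTZ library, 1463 CPM in the injured library and 2261 CPM in the uninjured library. The glutamine transporter slc38a3a ranked next in every library, with 1110 CPM (injured MTZ), 976 CPM (uninjured MTZ), 1122 CPM (injured) and 1522 CPM (uninjured). Both were highest in the uninjured library, and the order of these first members in level did not change between libraries. The sodium phosphate cotransporter slc20a1b was at 422 CPM (injured MTZ), 418 CPM (uninjured MTZ), 435 CPM (injured) and 325 CPM (uninjured), and its relative slc20a2 at between 233 and 294 CPM. Next to these in mean level, slc6a1b, slc1a4 and slc7a3a exchanged places between libraries, and neighbours among them had overlapping or reversed intervals in at least 2 of the 4 libraries.

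**Figure D1:**
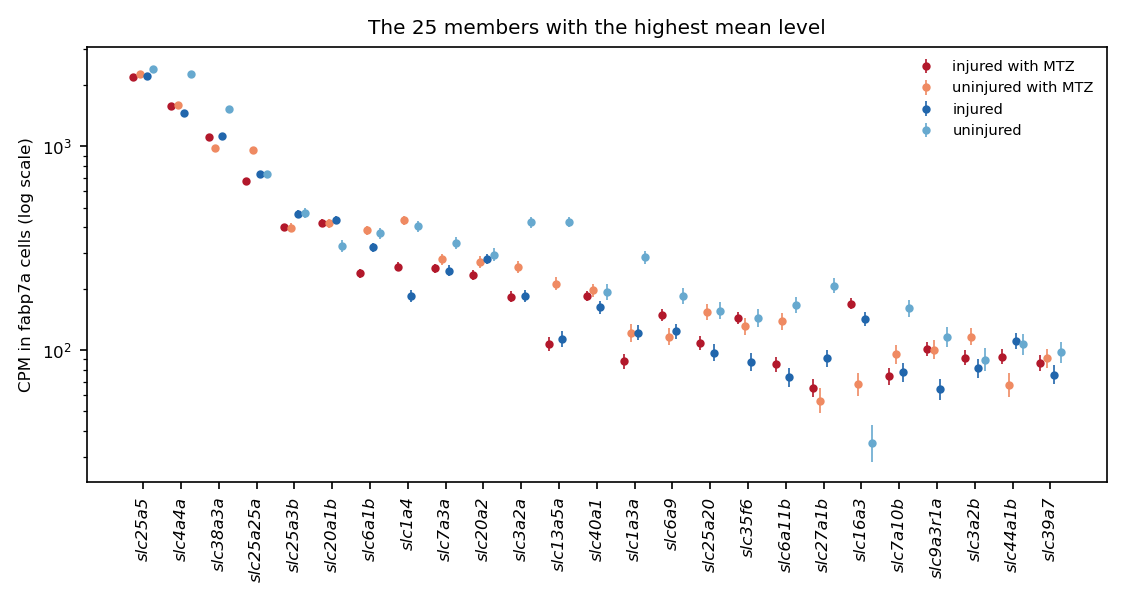
CPM in fabp7a cells (log axis) of the 25 members with the highest mean level, with 1 point per library and bars for the exact Poisson 95% interval. Among these, slc16a3 and slc13a5a spread widely between libraries while slc25a5 lies between 2180 and 2395 CPM.

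Amino acid and neurotransmitter carriers made up much of the rest. By class, set from the family and so with the genes slc7a6os and slc43a3b among them, amino acid carriers held 21.4% of member CPM with 22 members, neurotransmitter and creatine carriers 5.45% with 8 members, metal carriers 4.44% with 14 members, and carriers of lipids, bile acids and organic ions 4.1% with 13 members. The sugar carriers held 1.18% with 6 members, the glucose transporter slc2a1b among them at 26.6 CPM in the injured MTZ library, 66.4 CPM in the uninjured MTZ library, 19.7 CPM in the injured library and 34.9 CPM in the uninjured library. Ferroportin, the iron exporter encoded by slc40a1, was one of the steadiest, at 184 CPM (injured MTZ), 196 CPM (uninjured MTZ), 162 CPM (injured) and 193 CPM (uninjured). The vesicular glutamate transporter slc17a6b, a gene of excitatory neurons, was close to absent, at between 0.290 and 0.678 CPM. For comparison, the 2 glutamate transporters set aside by the rule were at between 8822 and 13769 CPM (slc1a2b) and between 217 and 393 CPM (slc1a3b).

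Some carriers were spread evenly over the radial glia and some were not. When each cell was thinned to 1000 UMIs, 3659 of the 4148 fabp7a cells were left. Cells under 1000 UMIs were dropped, 59 of 1279 (injured MTZ), 359 of 1240 (uninjured MTZ), 38 of 950 (injured) and 33 of 679 (uninjured). Thinned shares of the uninjured MTZ library, here and below, are thus those of its deeper cells. After thinning, slc25a5 was found in between 85.2% and 88.2% of cells. That is 0.956 to 0.973 times the share that an even spread of its UMIs would give. The GABA transporter slc6a1b was found in 9.34% of thinned cells in the injured MTZ library, 17.9% in the uninjured MTZ library, 8.66% in the injured library and 11.0% in the uninjured library. These were between 0.317 times (injured) and 0.559 times (uninjured MTZ) the even share, the lowest ratios in each library among the 21 members with a mean of at least 100 CPM. Fewer radial glia held it than its level would give if it were evenly spread.

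To see which carriers mark radial glia within the sort, fabp7a cells were set against the cells below the fabp7a cutoff in the same library (325 cells in the injured MTZ library, 93 in the uninjured MTZ library, 118 in the injured library and 48 in the uninjured library). A member was called when it differed by at least 2-fold in the same direction in all 4 libraries, with a prior count of 0.5. By that rule 5 of 127 members were higher in fabp7a cells, against 2.56% of all genes, and 9 were lower, against 6.74% of all genes. The fatty acid transporter slc27a1b had the highest of the smallest ratios over libraries. It stood at 65.4 CPM in fabp7a cells and 2.09 CPM in the other cells of the injured MTZ library, and at 207 CPM in fabp7a cells and 28.4 CPM in the other cells of the uninjured library, with log2 ratios of 4.75 (injured MTZ), 2.27 (uninjured MTZ), 3.37 (injured) and 2.75 (uninjured). The other 4 were the mitochondrial glycine carrier slc25a38a, slc6a1b, slc25a20 and the scaffold gene slc9a3r1a. Of these, slc6a1b was at 313 CPM in fabp7a cells and still at 228 CPM in the neuron-class cells described below. With the cutoff at 0.25% of UMIs slc6a1b and slc25a38a were not called. With it at 1%, slc25a20, slc25a38a and slc9a3r1a were not called, so only slc27a1b kept its call at both. For slc25a38a the other cells of each library were at 7.85 CPM or less, from few UMIs.

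The other cells of the uninjured MTZ library had a median of 714 UMIs, against 2995 in the injured MTZ library, 6119.5 in the injured library and 3268.5 in the uninjured library, and they often set the smallest ratio. The transporter slc4a4a, for example, stood at 1596 CPM in fabp7a cells and 1076 CPM in the other cells of that library, but at 1583 CPM in fabp7a cells and 118 CPM in the other cells of the injured MTZ library. Its log2 ratio was 0.56 in the uninjured MTZ library, against 3.74 (injured MTZ), 3.68 (injured) and 2.06 (uninjured) elsewhere. With stricter limits on cells (800 genes or more, mitochondrial UMIs of 10% or less), 18 members were called higher. Among them were then slc4a4a, slc38a3a, slc13a5a, slc6a11b, slc6a9, slc7a10b and slco1f3. The share of all genes called under these limits is not given here.

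Neuron-class and microglia-class cells among the sorted cells gave a closer view of where the members were found. A class cell had fabp7a below the cutoff and UMIs of at least 3 markers of its class. This gave 190 neuron-class cells (median 3022 UMIs), 158 of them in the injured MTZ library, and 75 microglia-class cells (median 2386 UMIs). The median was 3440 UMIs in fabp7a cells. In 8 endothelial-class cells, all of the injured MTZ library, slc38a3a was at 4039 CPM (83 UMIs), against 1153 CPM in fabp7a cells. There slc7a3a (1022 against 269 CPM) and slc25a25a (1265 against 757 CPM) were also above fabp7a cells, while slc4a4a had 0 UMIs. The member slc38a3a is thus not particular to radial glia. Members were chosen by their UMIs over all barcodes, neuron-class and microglia-class cells included, so a gene could enter mainly through a class. Neuron-class cells held 178 of the 201 UMIs of slc17a6b and 422 of the 571 of slc6a17. Microglia-class cells held 205 of the 370 UMIs of slc43a3b and 137 of the 242 of slc22a21. For such genes the contrast with fabp7a cells is in part built in by that choice. The members lower in fabp7a cells included neuronal genes. The orphan carrier slc35g2a was at 9.66 CPM in fabp7a cells and 675 CPM in neuron-class cells, the synaptic vesicle amino acid transporter slc6a17 at 6.92 CPM in fabp7a and 523 CPM in neuron-class cells, the glucose transporter slc2a3a at 1.64 CPM in fabp7a and 280 CPM in neuron-class cells, and slc17a6b at 0.487 CPM in fabp7a and 220 CPM in neuron-class cells. Microglia-class cells carried others. Of these cells, 34 were in the injured MTZ library, 32 in the uninjured MTZ library, 8 in the injured library and 1 in the uninjured library. The levels are thus mostly those of microglia-class cells of fish given MTZ. The gene slc43a3b, whose human relative carries nucleobases, was at 8.02 CPM in fabp7a and 583 CPM in microglia-class cells. For slc22a21 of the organic cation family these levels were 5.47 CPM in fabp7a and 390 CPM in microglia-class cells, and for the cystine-glutamate exchanger slc7a11 30.1 CPM in fabp7a and 310 CPM in microglia-class cells.

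Some members had no UMI in microglia-class or neuron-class cells. The organic anion transporter slco1f3 was at between 6.61 CPM (injured MTZ) and 45.2 CPM (uninjured) in fabp7a cells. It had 0 UMIs in microglia-class and in neuron-class cells. Taken as a rough upper limit for a count of 0, 3 UMIs would be 8.54 CPM in microglia-class and 3.71 CPM in neuron-class cells. Of cells thinned to 1000 UMIs, 0 of 51 microglia-class cells and 0 of 175 neuron-class cells held a slco1f3 UMI. By the same rough limit, 3 cells would be 5.88% of microglia-class and 1.71% of neuron-class cells. Of thinned fabp7a cells, 0.246% held it in the injured MTZ library, the source of most neuron-class and 34 of the microglia-class cells, so a difference in slco1f3 between these classes and radial glia was not detectable in shares of cells. The gene slco1f3 was also set against all cells below the fabp7a cutoff. In the uninjured MTZ library it was at 44.9 CPM in fabp7a cells and 31.4 CPM in the other cells (log2 ratio 0.35). In the injured MTZ library it was at 6.61 CPM in fabp7a cells and 0.695 CPM in the other cells (2.68). The other cells held 127366 UMIs of all genes in the uninjured MTZ library and 1438774 in the injured MTZ library. Both levels in other cells thus rest on few slco1f3 UMIs. The bile acid and steroid transporter subunit slc51a (35.4 CPM in fabp7a cells), the mitochondrial carrier slc25a48 (46.6 CPM) and slc27a1b (93.6 CPM) likewise had 0 UMIs in both classes. For these 3 the levels in fabp7a cells lay above 8.54 CPM in each library. In contrast, slc25a5, slc25a3b and slc20a1b were at 198 CPM or more in fabp7a, microglia-class and neuron-class cells alike.

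**Figure D2:**
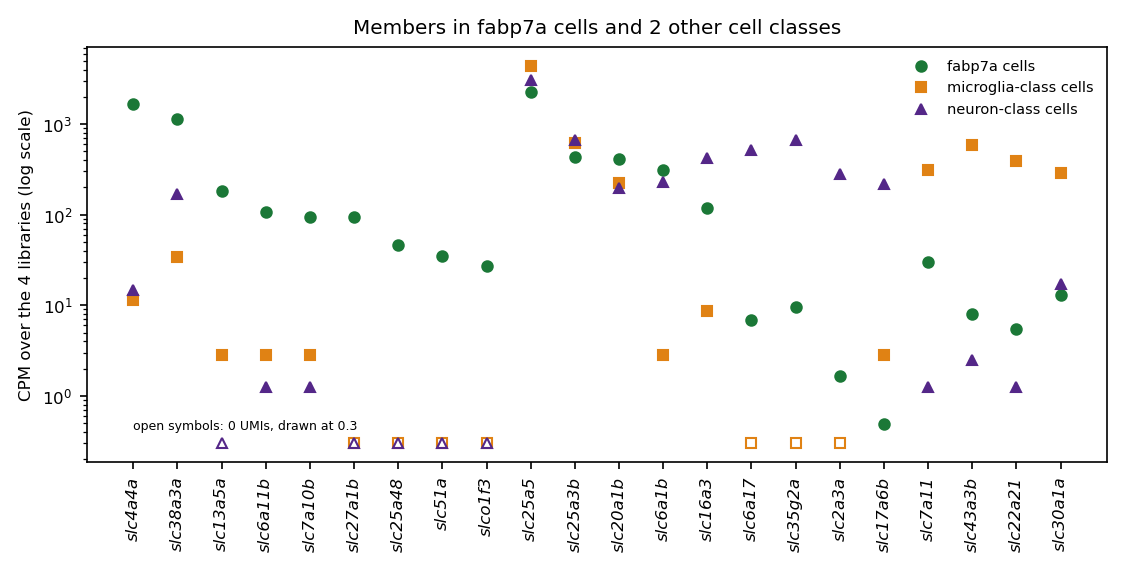
CPM over the 4 libraries (log axis) of 22 members in fabp7a cells (circles), microglia-class cells (squares) and neuron-class cells (triangles), with open symbols for 0 UMIs. slc4a4a and slc38a3a are at over 1000 CPM in fabp7a cells, slc35g2a and slc6a17 peak in neuron-class cells and slc43a3b in microglia-class cells.

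Members varied between libraries to unequal degrees. The highest of the 4 libraries was within 1.5-fold of the lowest for 39 members, 1.5 to 2-fold above it for 49 and over 2-fold above it for 39, 10 of them over 4-fold. The median was 1.69-fold. In each comparison below, a member was called when its CPM differed by at least 2-fold and it had at least 50 UMIs in the fabp7a cells of the 2 libraries together. Ratios carry exact conditional binomial 95% intervals, which cover counting error only. Comparisons that share a library are not independent of each other. Alternatives named below are other choices of cells or of scaling that take a member under 2-fold. The minimum of 50 UMIs was not applied again to single members under an alternative, so ratios of low members there can rest on few UMIs.

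The injured library was set against the uninjured library to ask how carrier expression differs 3 days after a lesion in fish without MTZ. Of 122 members tested, 4 were higher in the injured library, against 4.89% of all genes, and 12 were lower, against 4.9% of all genes. The share of members called higher was 3.28% and the share called lower 9.84%. The members lay lower as a group, with a median log2 ratio of -0.38 against -0.18 for all 9046 genes tested. Because all genes were shifted, the members' median relative to all genes was -0.20, with 84 members below the median of all genes and 38 above it.

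The members that fell were mainly carriers of amino acids, transmitters, citrate and fatty acids. The citrate transporter slc13a5a was at 113 CPM (104 to 124) in the injured library and 426 CPM (402 to 452) in the uninjured library, a log2 ratio of -1.91 (-2.07 to -1.76), or -1.13 taken as present or absent per cell. Of 21 amino acid carriers tested, 6 fell, against 4.9% of all genes. They included the heavy chain of amino acid exchangers slc3a2a, at 185 CPM in the injured library and 423 CPM in the uninjured library (log2 ratio -1.19, -1.33 to -1.06), and the glutamate transporter slc1a3a, at 122 CPM in the injured library and 285 CPM in the uninjured library (-1.23, -1.39 to -1.07). The neutral amino acid transporters slc1a4 and slc7a10b fell as well, with log2 ratios of -1.14 and -1.05. So did the low members slc36a1 (-1.35) and slc43a2b (-1.07), the last of which was not followed under the alternatives. The levels of slc3a2a, slc1a3a and slc13a5a did not overlap in their intervals. Taking any gene as present or absent in a cell ended the calls of slc1a3a (-0.74), slc3a2a (-0.48), slc1a4 (-0.46) and slc7a10b (-0.68), and scaling by TMM size factors (below) those of slc1a4 (-0.995) and slc7a10b (-0.90).

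The glial GABA transporter slc6a11b was at 73.6 CPM in the injured library and 166 CPM in the uninjured library, a log2 ratio of -1.18 (-1.39 to -0.97), or -0.80 taken as present or absent per cell. The neighbouring GABA transporters slc6a1b and slc6a1a were not called, with log2 ratios of -0.23 and -0.81. The fatty acid transporter slc27a1b was at 91.0 CPM in the injured library and 207 CPM in the uninjured library (-1.19, -1.37 to -0.998), or -0.76 taken as present or absent per cell. The glucose transporter slc2a12 (-1.45) and the anion transporter family member slc26a5 (-1.11, but -0.77 outside the interferon state described below) were lower at under 40 CPM in both libraries. For the noradrenaline transporter slc6a2 the log2 ratio was -2.59, but 1 cell held 41.7% of its 12 UMIs in the injured library and 1 cell 27.3% of its 44 UMIs in the uninjured library. None of 27 mitochondrial carriers was called, against 4.89% of all genes higher and 4.9% lower, with a median log2 ratio of -0.41. With so few tested, a count of 0 cannot be told from those shares.

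The members that rose were a lactate carrier, a glucose carrier and 2 others. The lactate transporter slc16a3, which exports lactate from glycolytic cells, was at 142 CPM (131 to 154) in the injured library and 34.9 CPM (28.2 to 42.7) in the uninjured library, a log2 ratio of 2.03 (1.71 to 2.36). After thinning, 7.79% of cells (71 of 912) held a slc16a3 UMI in the injured library, against 2.79% (18 of 646) in the uninjured library. The share was 26.9% in neuron-class cells, with a median depth of 3022 UMIs before thinning, and 1.96% in microglia-class cells (1 of 51). The glucose transporter slc2a3b was at 31.5 CPM in the injured library and 2.60 CPM in the uninjured library, a log2 ratio of 3.60 (2.52 to 4.94). Of thinned cells, 1.86% held it in the injured library and 0.310% in the uninjured library, against 9.80% of microglia-class and 4% of neuron-class cells. These classes have 51 and 175 thinned cells pooled over the 4 libraries, and the order of the shares was not tested. The bicarbonate transporter slc4a7 was at 19.9 CPM in the injured library and 9.64 CPM in the uninjured library (1.05, 0.40 to 1.74, but 0.99 in cells with under 3 markers of every other class), and the neuronal gene slc6a17 at 12.4 CPM in the injured library and 2.60 CPM in the uninjured library (2.26, 1.12 to 3.64). Neuronal markers in fabp7a cells summed to 186 CPM in the injured library and 168 CPM in the uninjured library, and their part in the result was not tested.

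Of these higher values, those of slc2a3b, slc6a17 and slc16a3 were smaller in cells with UMIs of under 2 of 12 interferon-induced genes. Cells with UMIs of at least 2 of 12 interferon-induced genes made up 60.0% of fabp7a cells in the injured library and 30.2% in the uninjured library. In the cells outside that state the log2 ratio was 0.16 for slc2a3b and 0.38 for slc6a17, both under 2-fold. It was 1.25 for slc16a3, while slc4a7 was still past 2-fold. The ratios of slc2a3b and slc6a17 rest on few UMIs, since both ranked 122 among the members in the uninjured library. They therefore cannot show in which cells these genes were higher. No member was called higher within that state in every library. Such cells were also deeper, with a median of 4923.5 UMIs against 2564 in the other fabp7a cells of the injured library, and the part of depth and of the state in the result was not tested.

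**Figure D3:**
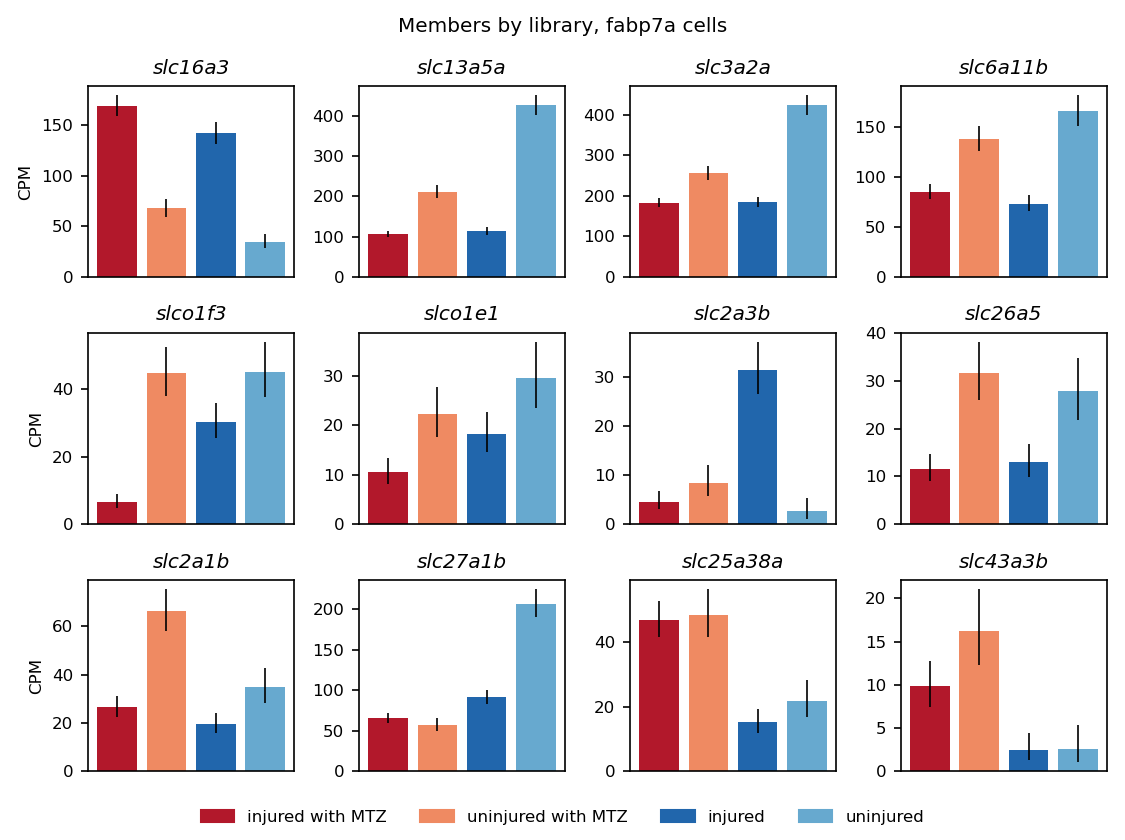
CPM in fabp7a cells of 12 members, with 1 bar per library (left to right injured MTZ, uninjured MTZ, injured, uninjured) and lines for the exact Poisson 95% interval. slc16a3 is higher in both injured libraries, slc13a5a is highest in the uninjured library, and slco1f3 is lowest in the injured MTZ library.

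The same question was put to fish with MTZ. Of 123 members tested, 5 were higher in the injured MTZ library than in the uninjured MTZ library, against 4.65% of all genes, and 7 were lower, against 4.29% of all genes. The median log2 ratio was -0.08, against -0.00 for all genes, and 0.0100 with TMM size factors. Outside the interferon state the median was -0.36 with 16 members lower, against a median of -0.45 outside that state without MTZ. The values of all genes in those cells are not given here, so these figures are not a result about the members. The organic anion transporter slco1f3 was the member that fell most. It was at 6.61 CPM (4.70 to 9.04) in the injured MTZ library and 44.9 CPM (38.1 to 52.6) in the uninjured MTZ library, a log2 ratio of -2.76 (-3.31 to -2.25) from 39 UMIs in the injured MTZ library and 155 UMIs in the uninjured MTZ library. After thinning, 3 of 1220 cells (0.246%, 0.0507 to 0.717%) held it in the injured MTZ library and 35 of 881 cells (3.97%, 2.78 to 5.48%) in the uninjured MTZ library, with Clopper-Pearson 95% intervals. Without thinning the shares were 2.74% in the injured MTZ library and 10.1% in the uninjured MTZ library.

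The other members that fell were slc26a5, at 11.5 CPM in the injured MTZ library and 31.6 CPM in the uninjured MTZ library (log2 ratio -1.45, -1.91 to -1.004), the glucose transporters slc2a1b (-1.32) and slc2a10 (-1.16), the GABA transporter slc6a1a (-1.21), a second organic anion transporter slco1e1 (-1.09) and the creatine transporter slc16a12b (-1.02). The last 2 are close to the 2-fold limit and several alternatives take each under it. Taken as present or absent per cell, slc2a1b was at -0.98, slc6a1a at -0.80 and slc2a10 at -0.90, which ends these calls. No amino acid carrier was called, of 22 tested. The citrate transporter slc13a5a was at 107 CPM in the injured MTZ library and 212 CPM in the uninjured MTZ library, a log2 ratio of -0.99 that stops just short of 2-fold.

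The lactate transporter slc16a3 was again higher, at 169 CPM (159 to 180) in the injured MTZ library and 68.1 CPM (59.7 to 77.4) in the uninjured MTZ library, a log2 ratio of 1.31 (1.1 to 1.52). Of thinned cells, 9.18% held it in the injured MTZ library and 4.99% in the uninjured MTZ library. The nucleoside transporter slc29a2 was at 8.47 CPM in the injured MTZ library and 2.03 CPM in the uninjured MTZ library (2.06, 0.91 to 3.45). Also higher were slc6a17 (1.30), the mitochondrial carrier slc25a14 (1.11) and slc16a9a, a relative of the lactate transporters (1.02, 79.2 CPM in the injured MTZ library and 39.1 CPM in the uninjured MTZ library). Of fabp7a cells, 59.3% in the injured MTZ library and 20.8% in the uninjured MTZ library were inside the interferon state. In cells outside it, slc16a3 was at a log2 ratio of 0.67, slc6a17 at 0.29 and slc16a9a at 0.29, which ends these calls. The ratio of slc6a17 rests on few UMIs, since it ranked 123 among the members in the uninjured MTZ library. In cells outside the cycling state slc29a2 was at -0.57 and slc25a14 at 0.98. The value of slc29a2 there comes from 1 UMI in each library, so it gives no direction. In cells with under 3 markers of every other class slc6a17 was at 0.80, which also ends its call. Neuronal markers in fabp7a cells summed to 354 CPM in the injured MTZ library and 493 CPM in the uninjured MTZ library. Their part in the result was not tested.

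Each injury comparison has its own pair of libraries, so their calls can be set side by side. Both called slc16a3 and slc6a17 higher, which is 50% of the 4 members higher without MTZ and 40% of the 5 with MTZ. Both called slc26a5 lower, which is 8.33% of the 12 members lower without MTZ and 14.3% of the 7 with MTZ. Over all genes, the calls shared by both comparisons were 41.2% of those higher without MTZ and 40.5% of those higher with MTZ, and 17.2% of those lower without MTZ and 18.4% of those lower with MTZ. With 1 to 2 shared members, the members' shares cannot be told from these. No member was called in opposite directions. Whether any member's injury ratio differs between fish with and without MTZ was not tested, since each ratio comes from 1 pair of libraries.

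**Figure D4:**
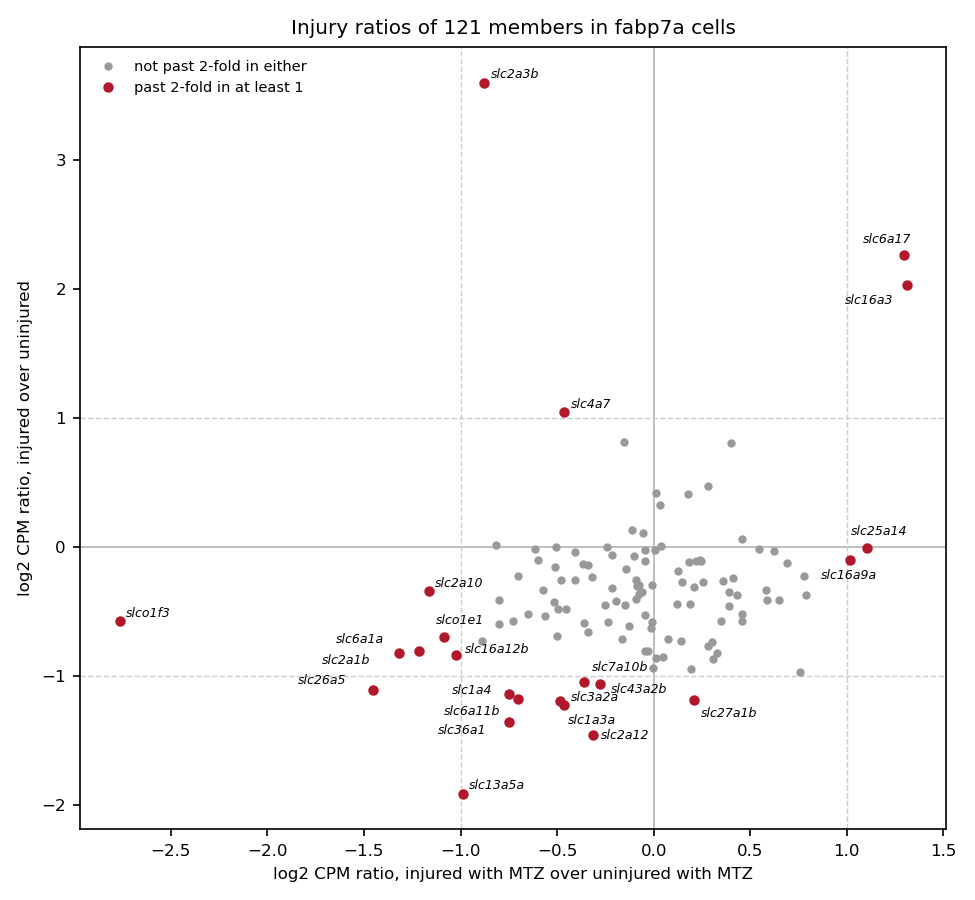
log2 CPM ratio of injured MTZ over uninjured MTZ (x axis) and of injured over uninjured (y axis) for the 121 members tested in both. Red points passed 2-fold in at least 1 comparison, dashed lines mark 2-fold, and slc16a3 and slc6a17 are the members past 2-fold higher in both.

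Within injured fish, the injured MTZ library was set against the injured library. Of 123 members tested, 3 were higher with MTZ, against 1.93% of all genes, and 4 were lower, against 3.61% of all genes, and the median log2 ratio was 0.04 against 0.05 for all genes. The mitochondrial glycine carrier slc25a38a, which takes part in haem synthesis, was at 47.1 CPM in the injured MTZ library and 15.2 CPM in the injured library (log2 ratio 1.64, 1.25 to 2.04). The haem transporter slc48a1b was at 43.7 CPM in the injured MTZ library and 20.6 CPM in the injured library (1.09, 0.74 to 1.45), and slc43a3b at 9.83 CPM in the injured MTZ library and 2.49 CPM in the injured library (1.98, 1.04 to 3.06). All 3 calls end in cells outside the interferon state, with log2 ratios of 0.94 for slc25a38a, 0.80 for slc48a1b and 0.997 for slc43a3b. Microglial markers in fabp7a cells summed to 2.88 CPM in the injured MTZ library and 12.2 CPM in the injured library, and their part in the result was not tested.

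The members lower with MTZ were slco1f3, slc2a3b, slc4a10a and slc35g2a. The organic anion transporter slco1f3 was at 6.61 CPM in the injured MTZ library and 30.3 CPM in the injured library (log2 ratio -2.20, -2.75 to -1.67). The glucose transporter slc2a3b was at 4.58 CPM in the injured MTZ library and 31.5 CPM in the injured library (-2.78, -3.43 to -2.18), a ratio of -1.49 outside the interferon state and -1.81 taken as present or absent per cell. The bicarbonate transporter slc4a10a was at 10.8 CPM in the injured MTZ library and 29.2 CPM in the injured library (-1.43, -1.88 to -0.99). For slc35g2a, a gene of neuron-class cells, the log2 ratio was -1.15, and it was -0.45 where cells also held a gfap UMI. Neuronal markers in fabp7a cells summed to 354 CPM in the injured MTZ library and 186 CPM in the injured library, and their part in the result was not tested.

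Within uninjured fish, the uninjured MTZ library was set against the uninjured library. Of 121 members tested, 3 were higher with MTZ, against 2.28% of all genes, and 8 were lower, against 3.77% of all genes. With TMM size factors 6 were higher and 6 lower, and the share of all genes with these factors is not given here. The median log2 ratio was -0.21 for the members and -0.10 for all genes. The fatty acid transporter slc27a1b was at 56.5 CPM in the uninjured MTZ library and 207 CPM in the uninjured library (log2 ratio -1.87, -2.12 to -1.64). The peptide transporter slc15a2 was at 10.1 CPM in the uninjured MTZ library and 33.7 CPM in the uninjured library (-1.73, -2.34 to -1.16), and the glutamine transporter slc38a3b at 13.9 CPM in the uninjured MTZ library and 38.9 CPM in the uninjured library (-1.49). The glutamate transporter slc1a3a was at 121 CPM in the uninjured MTZ library and 285 CPM in the uninjured library (-1.23, -1.41 to -1.06). The remaining lower members were slc35g2a (-1.69), the mitochondrial dicarboxylate carrier slc25a10 (-1.39), slc38a10 (-1.06) and slc13a5a (-1.01), the last 2 of which fall short of 2-fold under several alternatives, TMM scaling among them (-0.97 and -0.92). Amino acid carriers made up 4 of the 8, and 22 of the 121 members tested. Taken as present or absent per cell, slc1a3a was at -0.58 and slc35g2a at -0.97.

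Higher with MTZ were slc25a38a, at 48.7 CPM in the uninjured MTZ library and 21.9 CPM in the uninjured library (1.15, 0.72 to 1.61, but 0.86 outside the interferon state), slc4a7 (1.17, 0.51 to 1.88, but 0.87 with the stricter limits on cells) and slc43a3b, at 16.2 CPM in the uninjured MTZ library and 2.60 CPM in the uninjured library (2.64, 1.51 to 4.02). For slc43a3b, 1 cell held 17.9% of the 56 UMIs in the uninjured MTZ library. Its log2 ratio was 0.08 where cells also held a gfap UMI, and microglial marker transcripts in the fabp7a cells of these libraries summed to 111 CPM in the uninjured MTZ library and 2.60 CPM in the uninjured library. Their part in the result was not tested.

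Across the libraries, slco1f3 stood at 6.61 CPM in the injured MTZ library, 44.9 CPM in the uninjured MTZ library, 30.3 CPM in the injured library and 45.2 CPM in the uninjured library. The uninjured libraries overlapped in their intervals, the injured library lay just below both, and the injured MTZ library was far below all of them. Without MTZ the injury ratio was not called (log2 ratio -0.58, -0.94 to -0.21). The related slco1e1 had the same order of libraries, with 10.5 CPM (injured MTZ), 22.3 CPM (uninjured MTZ), 18.3 CPM (injured) and 29.7 CPM (uninjured). The more distant slco5a1a was at 39.0 CPM (injured MTZ), 34.5 CPM (uninjured MTZ), 38.0 CPM (injured) and 28.6 CPM (uninjured), with neighbouring values overlapping in their intervals, and was not called in any comparison.

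Radial glia are not uniform, and the members were also read within states. State cells were fabp7a cells with UMIs of at least 2 genes from a short list that holds no member. The CPM in state cells was set against the other fabp7a cells of the same library, and a member was called when it differed by at least 2-fold in every library with 20 or more state cells. Of 125 members tested in 8 states, 24 pairs of member and state were called, of which 14 had UMIs on both sides in every library. State cells had a higher median depth than the other fabp7a cells in every library and state called. Ventral cells of the uninjured MTZ library were the exception (2576 UMIs against 2745). After thinning to 1000 UMIs 4 of the 24 pairs were still called. Thinning left out cells under 1000 UMIs, and pairs with too few cells or UMIs left to be tested count as not called.

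The state set by lypd6, asic4a and itih1 had carriers both higher and lower than the other radial glia. It held 65 cells in the injured MTZ library, 34 in the uninjured MTZ library, 49 in the injured library and 66 in the uninjured library. In it 5 members were higher, against 2.13% of all genes, and 2 were lower, against 5.02% of all genes. The lower member slc29a2 was at 0 UMIs in the state cells of every library. Only between 0.489% (uninjured) and 2.06% (injured MTZ) of the other fabp7a cells held it, so a count of 0 cannot show it to be lower. The glutamine transporter slc38a3a was at 2635 CPM in state cells and 993 CPM in the other fabp7a cells of the injured MTZ library, and at 2814 CPM in state cells and 1320 CPM in the others of the uninjured library. Its log2 ratios were 1.41 (injured MTZ), 1.41 (uninjured MTZ), 1.57 (injured) and 1.09 (uninjured), so it was higher in all 4. The glycine transporter slc6a9 had log2 ratios of 1.85 (injured MTZ), 1.96 (uninjured MTZ), 1.85 (injured) and 1.52 (uninjured), and slc3a2a, slc7a11 and slc51a were higher too. The heavy chain slc3a2a and the exchanger slc7a11 are the 2 partners of the cystine-glutamate exchanger.

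The GABA transporter slc6a1b was nearly absent from the same cells. It was at 7.10 CPM in lypd6 state cells and 255 CPM in the other fabp7a cells of the injured MTZ library, and at 10.9 CPM in state cells and 431 CPM in the others of the uninjured library. Its log2 ratios were -5.17 (injured MTZ), -5.60 (uninjured MTZ), -6.86 (injured) and -5.30 (uninjured), from 1 to 4 UMIs in the state cells of a library. Cells with a slc6a1b UMI made up between 2.04% and 4.62% of the state and between 16.0% and 26.8% of the other fabp7a cells. Of these calls, slc38a3a, slc6a9 and slc6a1b kept their calls after thinning.

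The ventral state, set by nkx2.1, slit, netrin and related genes, was the reverse for slc6a1b. It was at 1664 CPM in ventral cells and 138 CPM in the other fabp7a cells of the injured MTZ library, with log2 ratios of 3.59 (injured MTZ), 3.24 (uninjured MTZ) and 3.67 (injured). The uninjured library had 12 ventral cells, too few to be called, with 2931 CPM in these and 302 CPM in the others. In the 4 libraries, between 80.5% and 83.3% of ventral cells held a slc6a1b UMI, against 12.6% to 25.1% of the other fabp7a cells. The glycine transporter slc6a9 was higher as well, with log2 ratios of 1.21 (injured MTZ), 1.35 (uninjured MTZ) and 1.23 (injured). Against 1.32% of all genes called higher and 4.13% called lower, 2 members were higher and 4 lower. The lower ones, slco1f3, slc22a2, slc6a2 and slc7a3b, rest on 0 to 4 UMIs per library in the state, and in the 12 ventral cells of the uninjured library slc22a2 and slc6a2 were higher (53.8 CPM in ventral and 10.7 CPM in the other cells for slc22a2, 161 CPM in ventral and 12.2 CPM in the other cells for slc6a2). With 23 to 41 ventral cells per library before thinning, no ventral call was kept after it. Thinning leaves out cells under 1000 UMIs, and with under 20 left in any of the libraries used the state is not tested. The missing ventral calls therefore cannot be read as calls lost to depth.

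Primed cells, which carry the proneural and Notch ligand genes ascl1a, dla and the like, were the state with the most members lower. In them 6 members were lower, against 1.98% of all genes, and 1, slc29a2, was higher, against 1.43% of all genes. The heavy chain slc3a2a was at 51.5 CPM in primed cells and 204 CPM in the other fabp7a cells of the injured MTZ library, and at 59.1 CPM in primed cells and 470 CPM in the others of the uninjured library. Its log2 ratios were -1.99 (injured MTZ), -2.10 (uninjured MTZ), -1.96 (injured) and -2.99 (uninjured). This was the only primed call kept after thinning. The other members lower were slc1a3a, slc6a9, slc7a10b, slc7a11 and slc6a22.1, most of them carriers of amino acids.

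The nucleoside transporter slc29a2, which takes up nucleosides for salvage, was found almost solely in cycling cells among the radial glia. It was at 42.2 CPM in cycling cells and 0.211 CPM in the other fabp7a cells of the injured MTZ library, 23.8 CPM in cycling cells and 0.313 CPM in the others of the uninjured MTZ library, and 38.2 CPM in cycling cells and 0.283 CPM in the others of the injured library. In the uninjured library it was at 29.4 CPM from 7 UMIs in cycling cells and at 0 UMIs in the others. Cells below the fabp7a cutoff, in which cycling genes were not scored, had more, with 8.47 CPM in fabp7a cells and 20.9 CPM in the other cells of the injured MTZ library, and 7.92 CPM in fabp7a cells and 97.3 CPM in the other cells of the injured library. Cycling cells made up 12.5% of fabp7a cells in the injured MTZ library, 4.44% in the uninjured MTZ library, 12.5% in the injured library and 5.89% in the uninjured library. It was the 1 member higher in that state, against 3.15% of all genes. The 1 member lower was slc6a2, against 1.11% of all genes, at 0 UMIs in cycling cells of every library. Only between 0.253% (uninjured MTZ) and 1.41% (uninjured) of the other fabp7a cells held slc6a2. A count of 0 among 40 (uninjured) to 160 (injured MTZ) cycling cells thus cannot show it to be lower. Homeostatic cells, set by cyp26c1, lipg and grm3, had 1 member lower, slc6a9, against 1.72% of all genes, and none higher, against 0.0871%. Interferon cells had 1 lower, slc6a2, against 0.0435% of all genes, with 8 UMIs or fewer per library, and none higher, against 0.331%. In the reactive and her9 states no member was called, against 0.253% of all genes called higher and 0.0697% lower in reactive cells, and 0.348% higher and 1.53% lower in her9 cells.

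**Figure D5:**
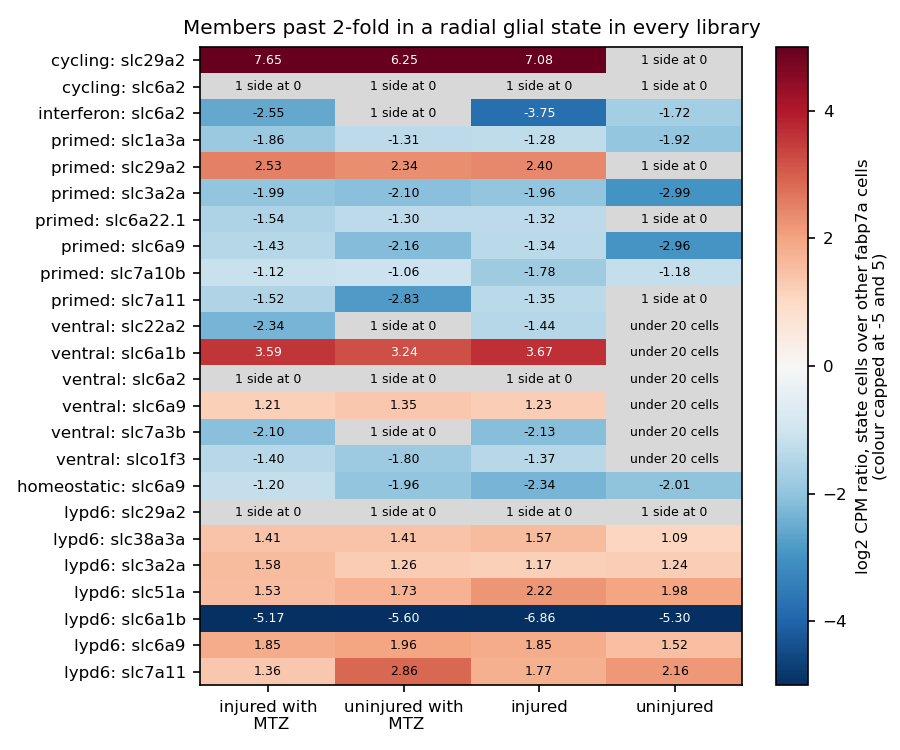
log2 CPM ratio of state cells over the other fabp7a cells of the same library for the 24 called pairs of state and member, with 1 column per library and the colour capped at -5 and 5. Grey marks a side at 0 UMIs or under 20 state cells, and slc6a1b is opposite in ventral (3.24 to 3.67) and lypd6 cells (-6.86 to -5.17).

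Genes that work beside these carriers were read in the same way, as a list of 47 genes found in the files, mainly ion pumps, channels, lipid transporters, glutamine synthetases, carbonic anhydrases and lactate dehydrogenases, that holds no member. In the injured against the uninjured library 25 of them were tested, 2 were higher and 4 lower, against 4.89% of all genes higher and 4.9% lower. The cholesterol transporter abca1a was at 174 CPM in the injured library and 69.4 CPM in the uninjured library (log2 ratio 1.33, 1.09 to 1.57) and abca1b had a ratio of 1.44. The gap junction gene cx43, the sodium pump subunit atp1a1b, the water channel aqp1a.1 and abcb5 were lower, with log2 ratios of -1.002 for cx43, -1.0007 for atp1a1b, -1.01 for aqp1a.1 and -1.25 for abcb5, the first 3 at the limit. With MTZ 27 were tested, of which abca1a was higher (1.06) and ca2 and kcnj10a lower (-1.25 and -1.01), against 4.65% of all genes higher and 4.29% lower. Of 28 tested between the injured libraries with and without MTZ, abca1b was lower with MTZ (-2.37), against 3.61% of all genes. Of 24 tested between the uninjured libraries none was called, against 2.28% of all genes higher and 3.77% lower.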

How the data were processed

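Single-cell libraries were made from sorted dTomato-positive cells. The authors deposited 1 matrix of unnormalized UMI counts per library, with a row for each gene and a column for each barcode. Cell Ranger 3.1.0 and the GRCz11 genome are named in the series text and the submitters' processing notes, while the matrix headers give Cell Ranger 4.0.0 per the file headers, so the version is uncertain. No genome of that build was used, so no coordinates or sequences are given. The 518 symbols with over 1 identifier, among 25107 features, were summed. A RefSeq gene table listed 123 of the 127 members.

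Kept cells had 300 genes or more and mitochondrial UMIs of 25% or less. As doublets, the top 0.8% of cells per 1000 barcodes by Scrublet score in scanpy 1.11.5 (51 cells) were removed, and 4732 of 4857 barcodes were kept. Total UMIs per library lay between 2942274 and 7541363. Counts were summed per library over fabp7a cells, since cells are not replicates. With 1 library per group no test was made and no p-value is given. Size factors by trimmed mean of M-values, an alternative, came from edgeR 4.0.16 under R 4.3.3. The ratio calculation was tested on simulated data.

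Members, lists, states and comparisons were chosen with earlier results of these data known. Named genes are slco1f3, the 15 most abundant members, the top member of each family of at least 3, called members (at most 10 per direction), the extremes between fabp7a and other cells, members called in a state, the threshold neighbours and called companion genes. Other genes, such as slc43a2b, were named after their values were seen.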

Additional observations from a re-analysis of the deposited data

Results flagged for a closer look

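The injury ratio of slc2a3b had opposite signs in the 2 pairs of libraries. Its log2 ratio was 3.60 in the injured against the uninjured library and -0.88 in the injured against the uninjured MTZ library, a difference of 4.48. The difference was not tested, since each ratio comes from 1 pair of libraries. Over the settings tried, the ratio of slc2a3b ran between -2.60 and 1.95 with MTZ and between 0.16 and 3.97 without MTZ. Its sign with MTZ thus depended on the setting. Its levels are 4.58 CPM in the injured MTZ library, 8.40 CPM in the uninjured MTZ library, 31.5 CPM in the injured library and 2.60 CPM in the uninjured library.

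The injury ratio of slc4a7 was likewise 1.05 without MTZ and -0.46 with MTZ, a difference of 1.51 that was not tested.

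The symbol SLC6A13, written in capitals and so outside the name pattern, had 467 UMIs over all barcodes, more than the threshold of 200. It encodes a GABA transporter in mammals. In fabp7a cells it was at 12.4 CPM in the injured MTZ library, 64.3 CPM in the uninjured MTZ library, 20.8 CPM in the injured library and 24.5 CPM in the uninjured library. Of 18 such capital symbols it was the 1 that passed 200 UMIs.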

How the results depend on the processing

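With 1 library per group, only counting error is known, and members under about 10 CPM rest on few UMIs. No paired analysis was possible because each group has 1 library and the labels give no replicate numbers. Of the main counts and medians under other settings 121 stayed close to the value reported and 46 moved. Of the ratios of single members and shares 2284 stayed, 282 moved and 1 reversed, that of slc29a2 with MTZ (-0.57 outside the cycling state). That value comes from 1 UMI in each library, so it shows no real change of direction. A change of sign was scored as reversed only for ratios that were past 2-fold as reported. Smaller ratios changed sign as well, such as that of slc2a3b with MTZ, which ran between -2.60 and 1.95. A minimum of 200 UMIs tests fewer genes, 1.5-fold calls more, and counting each gene once per cell (as present or absent) compresses abundant genes, all by construction. For the rest the cause was not tested. The counts and medians below are given without those of all genes under the same setting, so they are read only against the values reported.

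For the injured against the uninjured library, with 4 members higher and 12 lower, the count higher was 7 in cells with both gfap and fabp7a, 1 outside the interferon state and 1 with a minimum of 200 UMIs. The count lower was 3 with each gene counted once per cell, 7 with a minimum of 200 UMIs and 37 at 1.5-fold. The median was -0.23 with TMM and -0.15 with each gene counted once. An alternative ended 3 of the 4 calls higher and at least 7 of the 12 calls lower. Of these 12, slc43a2b was not followed under the alternatives.

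For the injured against the uninjured MTZ library, with 5 higher and 7 lower, the count higher was 3 in cells with under 3 markers of another class, 12 at 1.5-fold, 2 with a minimum of 200 UMIs, and 1 outside the cycling state, outside the interferon state and with each gene counted once. The count lower was 16 outside the interferon state, 3 with each gene counted once, 2 with a minimum of 200 UMIs and 22 at 1.5-fold. The median of -0.08 was -0.003815 in cells with both gfap and fabp7a, 0.075 with stricter limits on cells (800 genes or more, mitochondrial UMIs of 10% or less), -0.36 outside the interferon state, 0.0100 with TMM and 0.025 with each gene counted once. All 5 calls higher and 5 of the 7 lower ended under an alternative.

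For the injured MTZ library against the injured library, with 3 higher and 4 lower, the count higher was 1 outside the interferon state and 17 at 1.5-fold. The count lower was 7 outside the cycling state, 0 with a minimum of 200 UMIs and 10 at 1.5-fold. For the uninjured MTZ library against the uninjured library, with 3 higher and 8 lower, the count higher was 6 with TMM, 7 at 1.5-fold, and 1 with the stricter limits on cells, with each gene counted once and with a minimum of 200 UMIs. The count lower was 15 with the stricter limits, 5 outside the interferon state, 5 with each gene counted once, 3 with a minimum of 200 UMIs and 27 at 1.5-fold. The median of -0.21 was -0.32 with the stricter limits.

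Between fabp7a cells and other cells, the 5 members higher became 9 with fabp7a at 0.25% of UMIs, 3 at 1%, 18 with the stricter limits and 12 at 1.5-fold, and the 9 lower became 15 at 1.5-fold. Without a prior count, chosen after seeing the data, 6 were higher and 6 lower, and slc6a2, slc12a2 and slc16a6b were no longer lower. Of the 24 state calls, also with settings chosen after seeing the data, 10 calls came after thinning (4 shared) and 9 with at least 3 list genes (3 shared). Pairs with too few cells or UMIs left to be tested count as not called there.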
